A study of Homo sapiens with 15 samples.

Results

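The genes described here make ribosomes: 45 genes that encode RNA polymerase I, its factors, and the proteins that modify, cut and assemble ribosomal RNA in the nucleolus. They were chosen by name for these functions, with earlier results of these data known. Each symbol matched 1 of the 61248 loci in the deposited table through its Ensembl gene ID. Of the 45 genes, 44 passed the filter on low values, out of 14999 loci tested. The genes were followed in NCI-H1975 cells, an established line of human non-small cell lung cancer with a mutated epidermal growth factor receptor (EGFR). Messenger RNA was sequenced from 5 groups of 3 libraries each. The almonertinib cells received a drug that inhibits the kinase of this receptor, the EGF cells received the ligand of the receptor, and the siEGFR cells received an siRNA against EGFR. The siNC cells received a negative-control siRNA and are the reference for siEGFR, and the cells labelled Control are the reference for almonertinib and EGF. All groups share the same line. The labels give no dose or time and do not say what the Control cells received. Nothing in them tells if a replicate is a culture of its own, so every p-value reflects library-to-library spread alone, and that spread may be technical.

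A ribosome is built in the nucleolus around a long precursor RNA that RNA polymerase I transcribes from the ribosomal DNA repeats. Small nucleolar ribonucleoproteins (snoRNPs) of the C/D and H/ACA kinds methylate and pseudouridylate this precursor. The small subunit processome then folds and cuts the part that becomes the small subunit, while other factors, helicases and export adaptors mature the large subunit. The pathway uses much of the biosynthetic capacity of a growing cell, and growth factor signalling through ERK, mTOR and MYC is known to drive it in many cell types.

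Levels are in FPKM, the number of fragments per kilobase of a gene relative to all fragments of its library, so they can be compared between genes. Read totals recovered from the FPKM values were 18009903 to 34908302 per library, and the 44 tested genes had 53 to 36814 reads each in a library. Changes are log2 fold changes ± SE of FPKM + 1, which understate the change of low genes, from limma over all 15 libraries. A gene was called when its Benjamini-Hochberg adjusted p over all tested loci was under 0.05. EGFR itself had 28.6 to 29.9 FPKM in siEGFR libraries against 49.4 to 49.8 FPKM in siNC libraries, a change of -0.75 ± 0.11 (adjusted p = 0.00165). It was also lower with almonertinib (15.4 to 19.2 FPKM, against 22.3 to 28.01 FPKM in Control libraries, adjusted p = 0.00521) and higher in siNC than in Control libraries (1.00 ± 0.11, adjusted p = 4.9e-06). All 6 epithelial markers were above 1 FPKM in all 15 libraries, but at different levels. KRT7 averaged 33.3 FPKM with almonertinib, 58.5 FPKM with EGF, 284 FPKM in siEGFR, 303 FPKM in siNC and 56.4 FPKM in Control libraries. KRT19 averaged 601 FPKM with almonertinib, 520 FPKM with EGF, 312 FPKM in siEGFR, 335 FPKM in siNC and 590 FPKM in Control libraries. KRT19 was thus lower in both siRNA groups, where KRT7 was higher. Between Control and siNC libraries, EPCAM averaged 6.58 and 35.2 FPKM and CDH1 5.69 and 16.3 FPKM. KRT8 averaged 231 and 228 FPKM there, and KRT18 155 and 195 FPKM. The 6 together summed to 923 to 1142 FPKM, a sum in which the opposite shifts of KRT7 and KRT19 partly offset each other. The 4 leukocyte markers summed to at most 0.173 FPKM. The 3 endothelial markers summed to 2.19 to 2.73 FPKM with almonertinib and 1.57 to 1.96 FPKM with EGF. Their sum was 0.339 to 0.457 FPKM in siEGFR, 0.484 to 0.519 FPKM in siNC and 2.87 to 3.50 FPKM in Control libraries. PECAM1 averaged 0.686 FPKM with almonertinib, 1.34 FPKM with EGF and 1.21 FPKM in Control libraries, and CDH5 1.61, 0.377 and 1.84 FPKM. The sum of the 4 fibroblast markers was 358 to 383 FPKM with almonertinib, 193 to 214 FPKM with EGF, 194 to 196 FPKM in siEGFR, 138 to 146 FPKM in siNC and 337 to 352 FPKM in Control libraries, with COL1A2 alone at 128.5 to 361 FPKM. COL1A1 did not follow that sum: it averaged 10.1 FPKM with almonertinib, 3.88 FPKM with EGF, 14.4 FPKM in siEGFR, 8.61 FPKM in siNC and 6.80 FPKM in Control libraries. PDGFRB was above 1 FPKM in all 15 libraries. It averaged 10.9 FPKM with almonertinib, 2.23 FPKM with EGF, 2.13 FPKM in siEGFR, 1.42 FPKM in siNC and 8.97 FPKM in Control libraries. DCN was at 0 in 13 libraries and at most 0.00389 FPKM. The part of these markers in the results was not tested. Control 1 was the highest Control library for 27 of the 44 genes and almonertinib 3 the highest almonertinib library for 31. This was not confined to these genes. In log2 units, the median deviation of Control 1 from its group mean was 0.052 over the 44 genes and 0.050 over all tested loci. For almonertinib 3 it was 0.083 and 0.034. Other libraries deviated about as far in the other direction: Control 2 by -0.057 and -0.051, and almonertinib 2 by -0.088 and -0.044.

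Most of the genes were lowest with almonertinib, higher in Control and then EGF cells, and highest in both siRNA groups. Summed over the 44 genes, the level was 774 ± 54.5 FPKM with almonertinib, 1346 ± 38.1 FPKM with EGF, 1661 ± 13.6 FPKM with siEGFR, 1704 ± 17.7 FPKM with siNC and 894 ± 17.0 FPKM in Control cells (SD, n = 3 each). The almonertinib sum was 0.866 times, the EGF sum 1.51 times and the siNC sum 1.91 times that of Control cells. The group means stood in the order almonertinib, Control, EGF, siNC for 36 of the 44 genes, and POLR1C, UBTF, FBL, UTP14A, BYSL, NOB1, PES1 and PPAN departed from it. Every EGF library was above every almonertinib library for 40 of the 44 genes, as for 31.2% of all tested loci. Every siNC library was above every EGF library for 33 of the 44 genes, as for 37% of all tested loci. Libraries of siEGFR and siNC overlapped for 25 of the 44 genes, a share like that of all tested loci. The siEGFR libraries were all higher for 7 genes and all lower for 12, against 22.7% and 17.9% of all tested loci. In bulk RNA, a change in the share of cells that express a gene and a change in RNA per cell cannot be told apart.

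**Figure D1:**
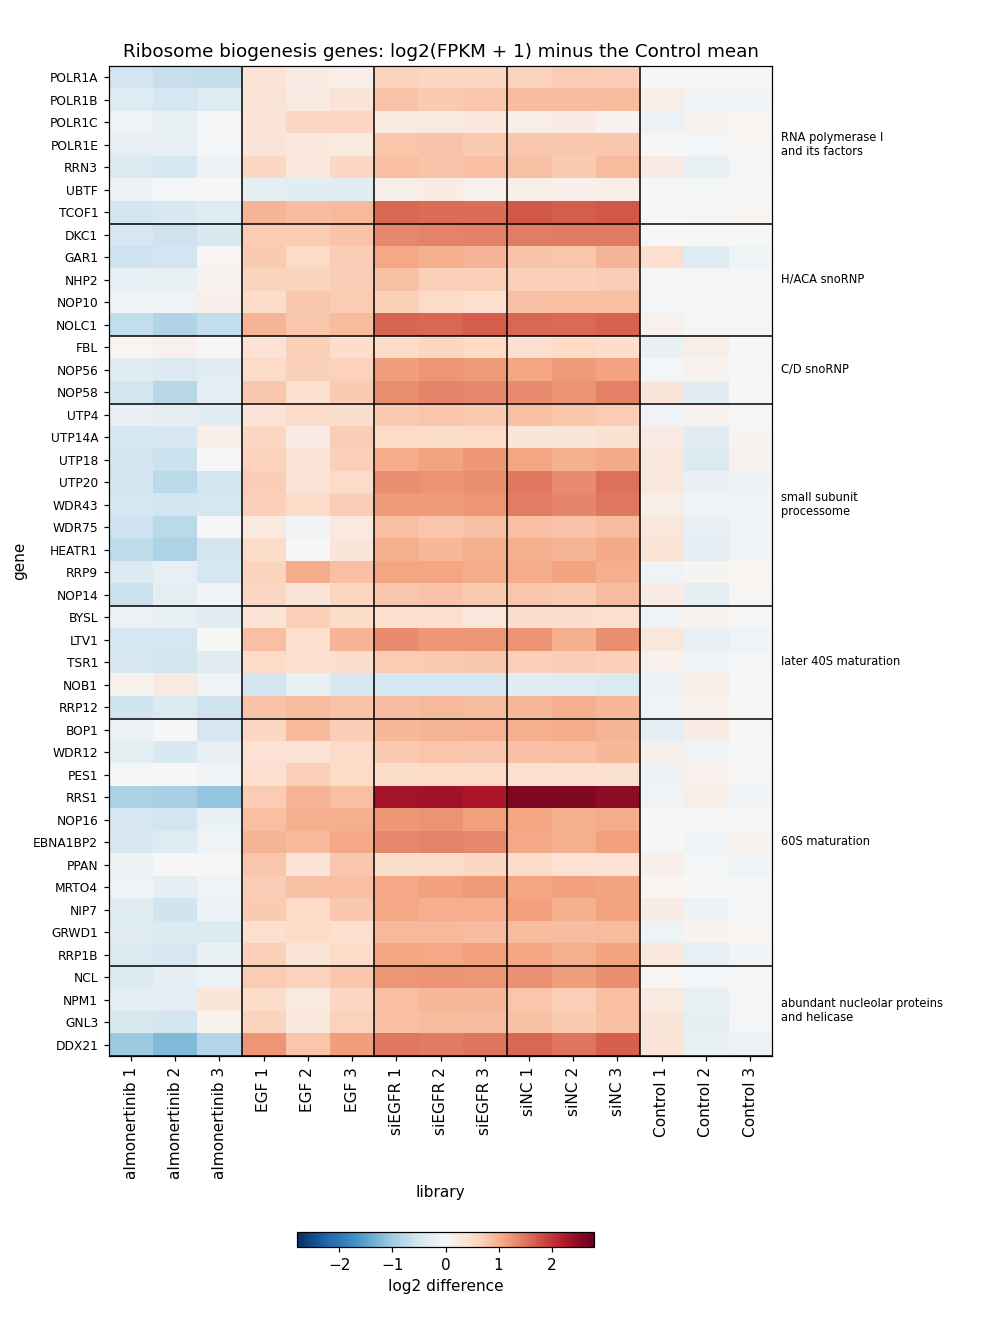
Each row is a tested gene, grouped by its role, and each column is a library; colour gives log2(FPKM + 1) minus the Control mean. Most rows are blue in the 3 almonertinib libraries, pale red with EGF and darker red in both siRNA groups, while UBTF and NOB1 are blue with EGF.

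The DNA at the start of these genes was read next, because the promoters of ribosome biogenesis genes are known for the E-box CACGTG, the site that MYC and MAX bind. RefSeq promoters (GRCh38.p14), running from 250 bases before to 50 bases after the start, were held for 37 of the 45 genes. Some genes have more than 1 promoter, and a gene was counted once, as holding a motif if any of its promoters did. The E-box CACGTG, searched on both strands, was in 18 of these 37 genes (48.6%) and in 12.6% of 9918 tested genes. Counted by promoter, it was in 7.26% of all 35116 promoters of the table. Shares of genes and shares of all promoters are therefore unlike measures, here and for the motifs below. Within 50 bases of the start it was in 17 of the 37 (45.9%), against 5.21% of tested genes. The ETS motif CCGGAAG was in 17 of the 37 (45.9%), in 22.8% of tested genes and in 10.3% of all promoters. The NRF1 motif, searched as 1 palindrome without degenerate letters, was in 3 (8.11%, against 2.74% of tested genes and 1.24% of all promoters), the E2F motif GGCGGGAA in 0 (against 6.48% and 3.16%), and TATAAA in 2 (5.41%, against 8.19% and 11.5%). All motifs were searched on both strands, each on its own, with overlaps between them allowed, and a match describes letters, not a bound site.

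The windows below run from 120 bases before the start through 30 bases after it, 5′ to 3′ on the strand of the gene, with the E-box in capitals. The first 5 hold an E-box within 50 bases of the start and come from genes with large and small changes alike. The last 3 hold none, and 2 of them are from the genes that moved against the rest.
DDX21, chr10:68956527-68956676, plus strand: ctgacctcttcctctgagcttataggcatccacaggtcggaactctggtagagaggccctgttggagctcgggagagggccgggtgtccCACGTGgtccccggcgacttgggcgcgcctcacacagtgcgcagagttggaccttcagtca
UTP20, chr12:101279985-101280134, plus strand: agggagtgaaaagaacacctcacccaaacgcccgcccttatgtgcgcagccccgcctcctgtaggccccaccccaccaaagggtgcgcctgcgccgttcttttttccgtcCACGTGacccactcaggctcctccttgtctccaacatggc
UTP4, chr16:69132529-69132678, plus strand: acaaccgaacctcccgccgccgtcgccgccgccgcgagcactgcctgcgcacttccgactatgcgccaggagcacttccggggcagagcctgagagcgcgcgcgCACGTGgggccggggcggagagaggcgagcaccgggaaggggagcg
WDR43, chr2:28894547-28894696, plus strand: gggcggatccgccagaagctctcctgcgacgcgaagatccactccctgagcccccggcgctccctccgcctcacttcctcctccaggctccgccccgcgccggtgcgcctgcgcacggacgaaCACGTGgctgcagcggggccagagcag
FBL, chr19:39846350-39846499, minus strand: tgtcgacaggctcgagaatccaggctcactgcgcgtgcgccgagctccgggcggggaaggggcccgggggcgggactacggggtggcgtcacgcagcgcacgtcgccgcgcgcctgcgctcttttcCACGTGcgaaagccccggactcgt
POLR1A, chr2:86105857-86106006, minus strand: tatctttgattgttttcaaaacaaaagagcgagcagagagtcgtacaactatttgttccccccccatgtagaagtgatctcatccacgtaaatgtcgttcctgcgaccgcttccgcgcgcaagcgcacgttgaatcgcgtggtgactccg
UBTF, chr17:44219646-44219795, minus strand: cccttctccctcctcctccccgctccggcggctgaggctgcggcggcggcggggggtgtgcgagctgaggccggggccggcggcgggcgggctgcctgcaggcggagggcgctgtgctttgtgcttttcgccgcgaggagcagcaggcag
NOB1, chr16:69754897-69755046, minus strand: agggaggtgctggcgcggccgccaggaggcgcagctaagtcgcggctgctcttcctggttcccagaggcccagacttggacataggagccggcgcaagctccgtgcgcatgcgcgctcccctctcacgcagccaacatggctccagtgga
In DDX21 the E-box begins 31 bases before the start, in UTP4 16 and in UTP20 10 bases before it. In WDR43 and FBL it lies just past the start, from positions 4 and 7. For a gene with several promoters, a promoter with the E-box in the window was shown if it had any. The other DDX21 promoter holds no E-box. The tested genes with and without an E-box in any of their promoters were set side by side. With almonertinib, 8 of 17 genes with an E-box were called lower (median -0.30) and 12 of 19 without (median -0.34). With EGF, 17 of 17 genes with an E-box were called higher (median 0.56), and of 19 without, 15 were called higher and 2 lower (median 0.49). Between siNC and Control the medians were 0.84 for both kinds. These splits are descriptions and the difference between the kinds was not tested.

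Many of these genes fell with almonertinib, and none rose. Of the 44 genes, 27 were called lower and 0 higher, while 18% of all tested loci were called lower and 12.1% higher. The median change was -0.34 over the 44 genes and -0.06 over all tested loci. By the ratio of mean FPKM the strongest falls were in DDX21, RRS1 and UTP20, whose levels with almonertinib were 45.05%, 46.7% and 49.7% of those in Control cells. HEATR1 stood at 55.3% and NOLC1 at 58.5%. For 23 genes every almonertinib library was below every Control library, as for 20.6% of all tested loci.

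Among RNA polymerase I genes, 5 of 7 fell with almonertinib. POLR1A, the largest catalytic subunit of the polymerase, had 3.85, 3.45 and 3.38 FPKM with almonertinib, against 6.05, 5.93 and 5.99 FPKM in Control libraries. The groups did not overlap, and the gene fell by 0.62 ± 0.06 on the log2 scale (adjusted p = 1.38e-05). POLR1B, the other large core subunit (-0.40), TCOF1, the treacle phosphoprotein that supports transcription of ribosomal DNA (-0.44), RRN3, which brings the polymerase to its promoter (-0.34), and the initiation subunit POLR1E (-0.17) fell too. Libraries of POLR1E and RRN3 overlapped with Control, and they were called in 13 and 19 of the 25 alternatives, with adjusted p values up to 0.299 and 0.173. UBTF, which binds and opens the ribosomal DNA repeats, had 16.3, 17.4 and 17.9 FPKM with almonertinib, against 18.2, 17.7 and 18.2 FPKM in Control libraries. These libraries overlapped, and UBTF was not called (-0.06 ± 0.04, adjusted p = 0.286). POLR1C, a subunit shared with RNA polymerase III, was not called either (-0.12 ± 0.08).

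Of the snoRNP genes, 2 of 5 in the H/ACA class and 2 of 3 in the C/D class fell. NOLC1, a chaperone of snoRNPs, had 13.7, 12.2 and 13.7 FPKM with almonertinib, against 24.5, 21.6 and 21.5 FPKM in Control libraries. All almonertinib libraries were lower, and the change was -0.73 ± 0.07 (adjusted p = 1.01e-05). DKC1, the pseudouridine synthase of the H/ACA particle, fell as well (-0.49 ± 0.05, adjusted p = 1.94e-05). NOP10, the smallest core protein of that particle and the most abundant of the 44 mRNAs in Control cells, had 149.5, 149 and 178 FPKM with almonertinib, against 157, 166 and 161 FPKM in Control libraries. The groups overlapped (-0.03 ± 0.08, adjusted p = 0.827). NOP58, a scaffold of the C/D particle, had 7.04, 5.74 and 8.72 FPKM with almonertinib, against 13.6, 8.37 and 10.4 FPKM in Control libraries, and fell (-0.52 ± 0.15, adjusted p = 0.0218). Without Control 1, almonertinib 1 or almonertinib 2 its adjusted p was 0.0931, 0.0520 or 0.0998. Its partner NOP56 fell less (-0.34). FBL, the methyltransferase of the same particle, had 40.1, 42.2 and 38.5 FPKM with almonertinib, against 33.98, 43.7 and 38.9 FPKM in Control libraries. It overlapped between groups and was not called (0.06 ± 0.09, adjusted p = 0.641).

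In the small subunit processome 5 of 9 genes fell with almonertinib. HEATR1, the human counterpart of yeast Utp10, had 4.39, 3.82 and 5.04 FPKM with almonertinib, against 10.5, 6.25 and 7.22 FPKM in Control libraries (-0.71 ± 0.16, adjusted p = 0.00514). Its groups did not overlap, although Control 1 was well above the other Control libraries. WDR43, another component of the early processome, fell by 0.51 ± 0.07 (adjusted p = 0.000182), and UTP20 had a change of -0.60 ± 0.13 (adjusted p = 0.00441). UTP4, which is also called cirhin, had 10.7, 10.3 and 10.1 FPKM with almonertinib, against 11.8, 13.7 and 12.8 FPKM in Control libraries, the smallest log2 change of this class (-0.28 ± 0.06, adjusted p = 0.00516). It was not called with median-ratio scaling (adjusted p = 0.128) or limma-voom (adjusted p = 0.0971).

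Of the 5 genes of late small subunit maturation, 3 fell. BYSL, which was among them, was called in 16 of the 25 alternatives. RRP12, an export factor of the subunit precursors, had 3.28, 3.74 and 3.25 FPKM with almonertinib, against 4.77, 5.91 and 5.30 FPKM in Control libraries, without overlap (-0.51 ± 0.07, adjusted p = 0.000155). NOB1, the endonuclease that makes the last cut in the small subunit RNA, had 59.1, 65.7 and 51.6 FPKM with almonertinib, against 49.2, 62.03 and 55.3 FPKM in Control libraries. It overlapped and was not called (0.08 ± 0.10, adjusted p = 0.577). On the large subunit side 8 of 11 genes fell. Among them, MRTO4 (adjusted p = 0.0490) was called in 6 of the 25 alternatives, and RRP1B, whose libraries overlapped with Control, in 12. RRS1, a factor that helps load a ribonucleoprotein onto the large subunit precursor, had 5.51, 5.34 and 4.65 FPKM with almonertinib, against 10.2, 12.6 and 10.5 FPKM in Control libraries. The groups were well apart, and RRS1 had a change of -0.97 ± 0.08 (adjusted p = 7.72e-06). PES1 and BOP1, which form a complex with WDR12, were not called, and PES1 had 53.3, 55.4 and 52.1 FPKM with almonertinib, against 50.1, 60.97 and 56.8 FPKM in Control libraries (-0.06 ± 0.07). WDR12 itself fell (-0.32 ± 0.08, adjusted p = 0.00798).

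Of the abundant nucleolar proteins and the helicase, 2 of 4 fell. DDX21, a nucleolar RNA helicase, had 6.76, 5.63 and 7.88 FPKM with almonertinib, against 19.2, 12.7 and 13.1 FPKM in Control libraries. All almonertinib libraries were below all Control libraries, and this was the largest change of the 44 genes (-1.03 ± 0.15, adjusted p = 0.000426). Nucleolin (NCL), which binds the ribosomal precursor RNA, fell by 0.28 on the log2 scale. Nucleophosmin (NPM1), the shuttling chaperone, had 56.9, 55.7 and 86.3 FPKM with almonertinib, against 80.7, 58.7 and 65.2 FPKM in Control libraries. Its groups overlapped and it was not called (-0.06 ± 0.16, adjusted p = 0.803).

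The count of falls depended on how the spread was estimated. Fitted on the 6 libraries of this comparison alone, 8 genes were called lower and 0 higher (3.05% and 2.66% of all tested loci were), namely WDR43, POLR1A, TCOF1, DKC1, RRS1, RRP12, DDX21 and NOLC1, and these same 8 were called in each of the 25 alternatives. Scaling moved the split of calls over all loci: 1817 were higher and 2700 lower as deposited, 1094 (7.29%) and 3876 (25.8%) after rescaling to TPM, and 2189 (14.6%) and 2158 (14.4%) with median-ratio scaling. Of the 44 genes, 27 were called lower as deposited, 31 after rescaling to TPM and 21 with median-ratio scaling, and 0 higher under each. Without Control 1 and almonertinib 3 together, 30 were called lower and 0 higher (15.7% and 10.6% of all tested loci).

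Nearly all of these genes rose with EGF. Of the 44 genes, 40 were called higher and 2 lower, while 22% of all tested loci were called higher and 27.3% lower. The median change was 0.56 for the 44 genes and -0.04 for all tested loci. Means rose at least 2-fold for only 4 genes, so the change was broad and mostly moderate. Every EGF library was above every Control library for 38 genes and below for 2, as for 22.3% and 28.8% of all tested loci. With median-ratio scaling 4358 loci (29.1%) were called higher and 3189 (21.3%) lower, against 3306 and 4090 as deposited, and 41 of the 44 genes were called higher and 1, UBTF, lower.

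Among RNA polymerase I genes, 6 of 7 rose with EGF. TCOF1 had 8.02, 7.53 and 7.75 FPKM with EGF, against 3.68, 3.56 and 3.85 FPKM in Control libraries. These groups did not overlap, and the change was 0.90 ± 0.05 (adjusted p = 1.8e-08). POLR1A had 8.05, 7.24 and 6.90 FPKM with EGF and a mean of 5.99 ± 0.0618 FPKM in Control cells (SD, n = 3), the smallest rise of the class (0.26 ± 0.06, adjusted p = 0.00209). UBTF went the other way: it had 14.7, 14.3 and 14.6 FPKM with EGF and a mean of 18.02 ± 0.283 FPKM in Control cells (SD, n = 3). All EGF libraries were lower, a fall of 0.29 ± 0.04 on the log2 scale (adjusted p = 0.000115).

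All 8 snoRNP genes rose with EGF. NOLC1 had 44.4, 39.1 and 42.1 FPKM with EGF and a mean of 22.5 ± 1.72 FPKM in Control cells (0.87 ± 0.07, adjusted p = 2.56e-07). NHP2, a core H/ACA protein, had 82.1, 82.5 and 85.9 FPKM with EGF, against 54.1, 51.6 and 53.5 FPKM in Control libraries (0.64 ± 0.07, adjusted p = 1.02e-05). Neither gene overlapped between groups. In the C/D particle, NOP58 had 18.5, 14.8 and 18.4 FPKM with EGF and a mean of 10.8 ± 2.62 FPKM in Control cells (0.65 ± 0.15, adjusted p = 0.00336), and FBL, which almonertinib left uncalled, had 51.2, 62.2 and 54.7 FPKM with EGF and a mean of 38.9 ± 4.84 FPKM in Control cells (0.52 ± 0.09, adjusted p = 0.000252).

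In the processome 7 of 9 genes rose with EGF. RRP9, a protein of the U3 snoRNP, had 34.3, 45.9 and 39.9 FPKM with EGF, against 19.9, 22.95 and 22.7 FPKM in Control libraries (0.84 ± 0.10, adjusted p = 1.02e-05). Its libraries did not overlap. WDR75, a subunit of the complex that joins the nascent precursor, had 8.37, 6.34 and 8.42 FPKM with EGF, against 8.67, 5.63 and 6.27 FPKM in Control libraries. Those libraries overlapped and WDR75 was not called (0.16 ± 0.18, adjusted p = 0.485), and HEATR1 was the other gene not called (0.29 ± 0.16, adjusted p = 0.14).

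Late small subunit genes rose in 4 of 5 cases. RRP12 had 9.95, 10.6 and 9.97 FPKM with EGF and a mean of 5.33 ± 0.568 FPKM in Control cells (0.82 ± 0.07, adjusted p = 4.56e-07). NOB1 fell: it had 37.7, 47.8 and 40.2 FPKM with EGF and a mean of 55.5 ± 6.41 FPKM in Control cells. All EGF libraries were below all Control libraries, and the change was -0.40 ± 0.10 (adjusted p = 0.00604, and 0.113 with median-ratio scaling). All 11 tested large subunit genes rose. EBNA1BP2, a processing factor of the large subunit RNA, had 30.6, 29.4 and 33.3 FPKM with EGF, against 15.2, 14.5 and 16.2 FPKM in Control libraries (0.98 ± 0.08, adjusted p = 6.81e-07). WDR12 rose least of these on the log2(FPKM + 1) scale, though by the ratio of means GRWD1 (1.47) and PES1 (1.48) rose less than WDR12 (1.49). WDR12 had 4.19, 4.16 and 4.68 FPKM with EGF, against 3.30, 2.58 and 2.87 FPKM in Control libraries (0.45 ± 0.08, adjusted p = 0.000252). DDX21 had the largest log2 change of the 44 genes, while by the ratio of means NOP16 rose slightly more (2.16, and 2.15 for DDX21). The helicase had 36.2, 26.02 and 34.4 FPKM with EGF and a mean of 14.996 ± 3.67 FPKM in Control cells (1.06 ± 0.15, adjusted p = 8.01e-05). EBNA1BP2, WDR12 and DDX21 did not overlap between groups. NPM1 had 97.6, 80.3 and 101 FPKM with EGF and a mean of 68.2 ± 11.3 FPKM in Control cells. The groups overlapped, and it rose less (0.45 ± 0.16, adjusted p = 0.03), and leaving out Control 2, Control 3, EGF 1 or EGF 3 gave adjusted p values of 0.111, 0.0811, 0.0845 or 0.104.

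**Figure D2:**
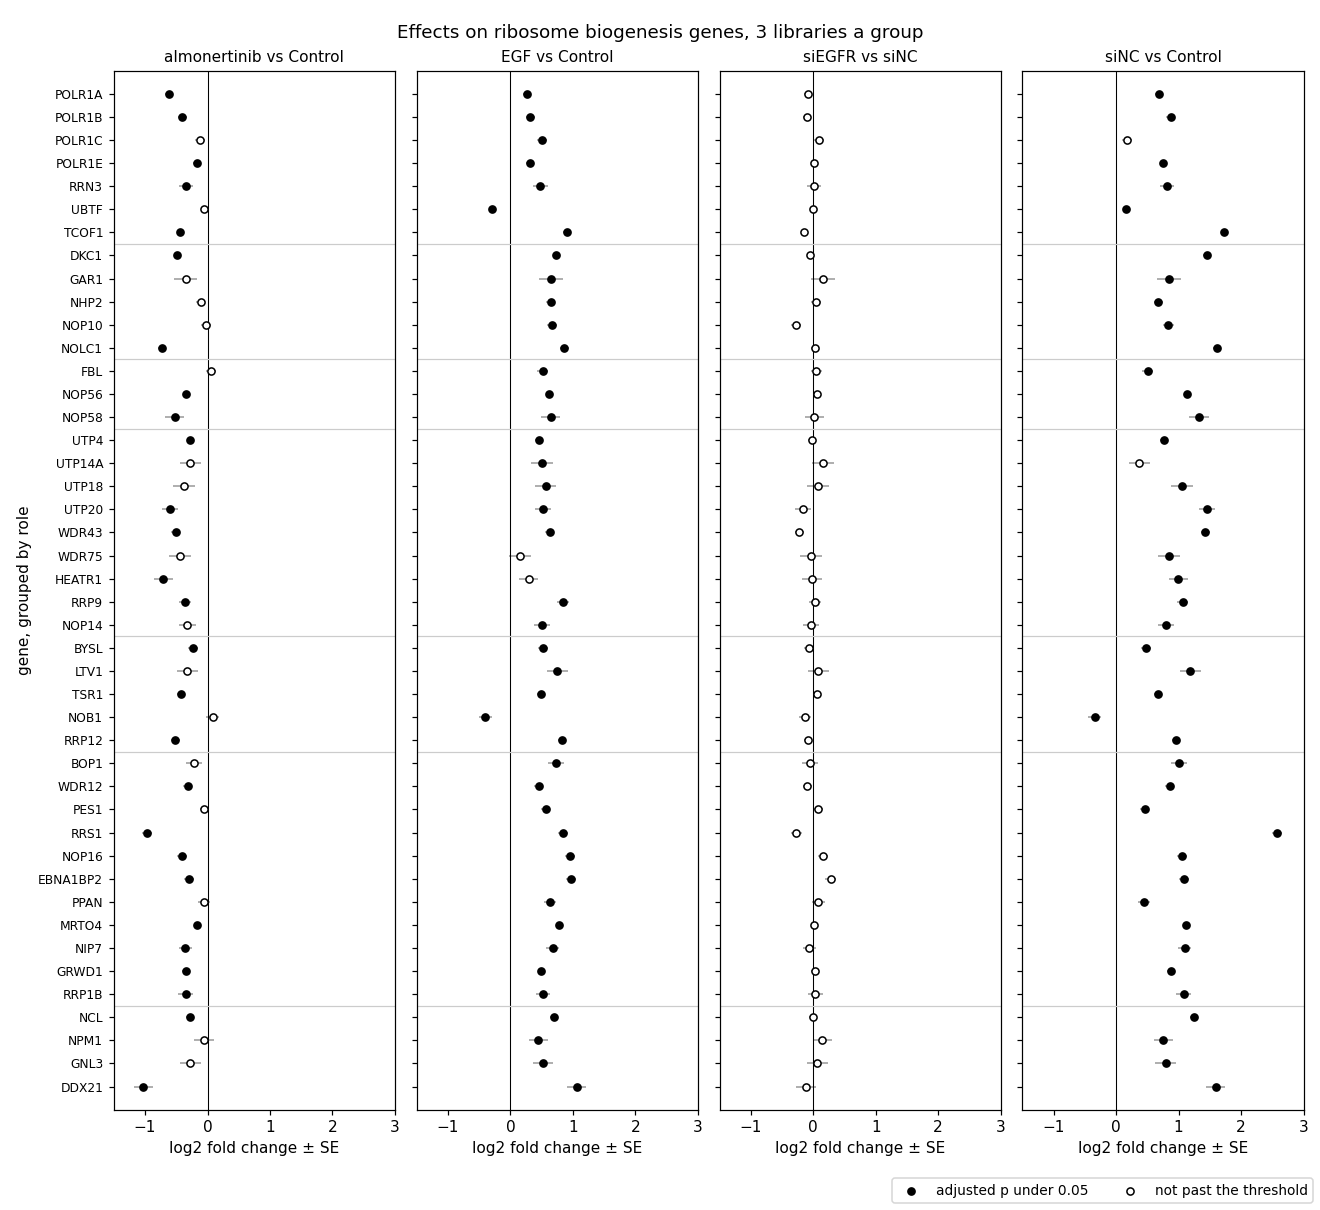
Points are log2 fold changes of FPKM + 1 and lines are ± SE, by gene and grouped by role, in 4 comparisons of 3 libraries against 3; filled points passed an adjusted p of 0.05. Points lie mostly left of 0 with almonertinib, right of 0 with EGF and farther right for siNC against Control, and close to 0 for siEGFR against siNC.

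The levels of these genes in siEGFR and siNC cells lay close together. None of the 44 genes was called by limma and 5 (11.4%) had an unadjusted p under 0.05, as 17.2% of all tested loci did, whereas 2.27% of all tested loci were called higher and 3.19% lower. Limma-voom on recovered reads called 1 gene, WDR43 (1.85% of all tested loci were called higher and 3.77% lower). The median change was 0.01, as over all loci, and the ratio of means lay between 0.826 and 1.22 for every gene. The 95% intervals of the log2 changes reached from -0.46 at the lowest to 0.58 at the highest, with a median SE of 0.08. Every siEGFR library was above every siNC library for 7 genes and below for 12, as for 22.7% and 17.9% of all tested loci.

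The largest differences between siEGFR and siNC were small ones that missed the threshold. NOP10 had 256, 235 and 223 FPKM with siEGFR, against 284, 291 and 290.4 FPKM with siNC (-0.28 ± 0.08, adjusted p = 0.0743). RRS1 had 59.3, 60.1 and 56.4 FPKM with siEGFR, against 72.7, 72.9 and 67.3 FPKM with siNC (-0.27 ± 0.08, adjusted p = 0.0876). WDR43 had 23.3, 23.1 and 23.9 FPKM with siEGFR, against 27.8, 26.5 and 28.3 FPKM with siNC (-0.22 ± 0.07, adjusted p = 0.0839). In these 3 genes all siEGFR libraries were the lower ones. EBNA1BP2 had 40.4, 41.9 and 40.5 FPKM with siEGFR, against 33.6, 32.3 and 35.1 FPKM with siNC, and here the siEGFR libraries were all higher (0.28 ± 0.08, adjusted p = 0.0745). The siRNA groups varied less than the others: the median SD of the 44 genes, in log2 units, was 0.035 in siEGFR and 0.053 in siNC libraries, and 0.122 with almonertinib, 0.115 with EGF and 0.139 in Control libraries. Over all tested loci the medians were alike, at 0.051, 0.060, 0.138, 0.106 and 0.146 in the same order. Fitted on the 6 siRNA libraries alone, 7 genes were called: EBNA1BP2 and UTP14A higher, and WDR43, TCOF1, RRS1, NOP10 and NOB1 lower (10.8% and 9.75% of all tested loci were called higher and lower in that fit).

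The largest median change of these genes lay between the siNC and Control groups, which serve as references for the other comparisons. Between siNC and Control, 41 of the 44 genes were called higher and 1 lower, while 34.4% of all tested loci were called higher and 31.6% lower. The median change was 0.87 for the 44 genes and 0.03 for all tested loci. The siNC mean was at least 2 times the Control mean for 23 genes and at least 3 times for 5. Every siNC library was above every Control library for 43 genes and below for 1, as for 35.5% and 33.2% of all tested loci. Transfection, the siRNA and any difference in culture cannot be told apart here.

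RRS1 had the largest of these changes. It had 72.7, 72.9 and 67.3 FPKM with siNC, against 10.2, 12.6 and 10.5 FPKM in Control libraries, a ratio of 6.41 (2.58 ± 0.08, adjusted p = 4.04e-11). TCOF1 had 14.7, 14.3 and 14.6 FPKM with siNC and a mean of 3.70 ± 0.149 FPKM in Control cells (1.72 ± 0.05, adjusted p = 1.64e-11). NOLC1 had 70.98, 69.2 and 72.8 FPKM with siNC and a mean of 22.5 ± 1.72 FPKM in Control cells (1.61 ± 0.07, adjusted p = 2.71e-10). By the ratio of means UTP20 (3.45) stood between TCOF1 (3.92) and NOLC1 (3.15). DDX21 had 46.9, 43.6 and 49.05 FPKM with siNC and a mean of 14.996 ± 3.67 FPKM in Control cells (1.59 ± 0.15, adjusted p = 1.01e-06). The gene called lower was NOB1, with 45.2, 43.1 and 41.7 FPKM with siNC and a mean of 55.5 ± 6.41 FPKM in Control cells (-0.35 ± 0.10, adjusted p = 0.00993, and 0.0649 with median-ratio scaling). POLR1C (0.17 ± 0.08) and UTP14A (0.37 ± 0.17) were not called. UBTF rose by 0.16 only (adjusted p = 0.00558), so it was the gene whose level changed least upward among those called.

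**Figure D3:**
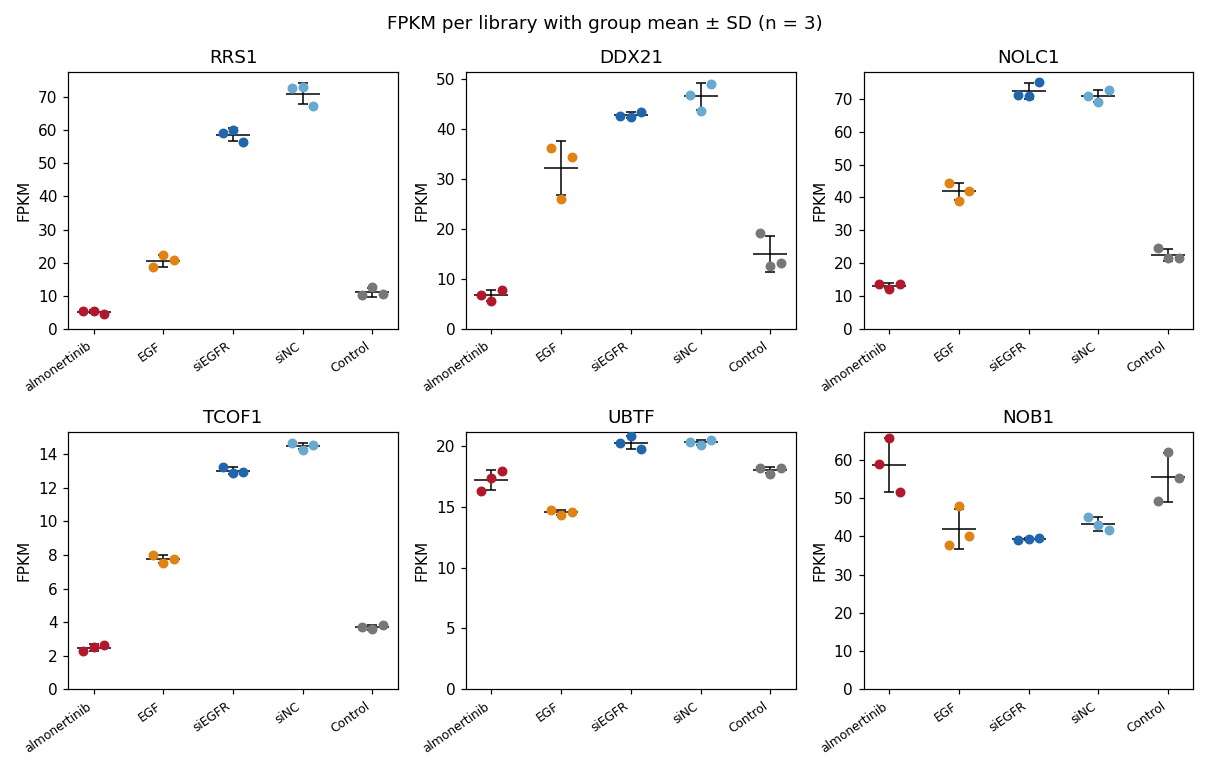
FPKM of 6 genes by group; each point is a library and the bar with whiskers is the mean ± SD (n = 3). RRS1, DDX21, NOLC1 and TCOF1 are lowest with almonertinib and highest in the siRNA groups, UBTF is lowest with EGF, and NOB1 is lower with EGF, siEGFR and siNC than in Control libraries.

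Whether the drug and the knockdown differed in their effect was tested directly, as the almonertinib effect (against Control) minus the siEGFR effect (against siNC). Of the 44 genes, 12 had a more negative drug effect and 0 a more positive one, while 7.71% of all tested loci were called lower and 5.95% higher. The median difference was -0.35 for the 44 genes and -0.07 for all tested loci. By role, the called genes were POLR1A (-0.53) and TCOF1 (-0.29) of the polymerase class, DKC1 (-0.43), NOLC1 (-0.76) and NOP56 (-0.40) of the snoRNPs, and RRP12 (-0.43) and TSR1 (-0.48) of late small subunit maturation. RRS1 (-0.70), NOP16 (-0.55), EBNA1BP2 (-0.58) and GRWD1 (-0.37) were those of the large subunit, and DDX21 had the largest difference (-0.91 ± 0.22, adjusted p = 0.015). NOLC1 came next (adjusted p = 0.000244). No processome gene was called, but the median of that class was -0.41. Of its 9 genes, 5 had an unadjusted p under 0.05, as 30.1% of all tested loci did. HEATR1 was at -0.69 ± 0.22 (adjusted p = 0.0559) and was called in 11 of the 25 alternatives. Of the 12 called genes, 8 were called in every alternative. With limma-voom NOP56, RRP12 and GRWD1 were not called (adjusted p = 0.0855, 0.0725 and 0.111). After rescaling to TPM the median over all loci was -0.18, 562 loci (3.75%) were called higher and 1753 (11.7%) lower (892 and 1157 as deposited), and 20 of the 44 genes were called, all lower. With median-ratio scaling 1055 loci (7.03%) were called higher and 818 (5.45%) lower, and 9 of the 44 genes, all lower. EGFR mRNA was lower in both contrasts (-0.52 and -0.75), and the doses and times behind them are not given in the sources used here.

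**Figure D4:**
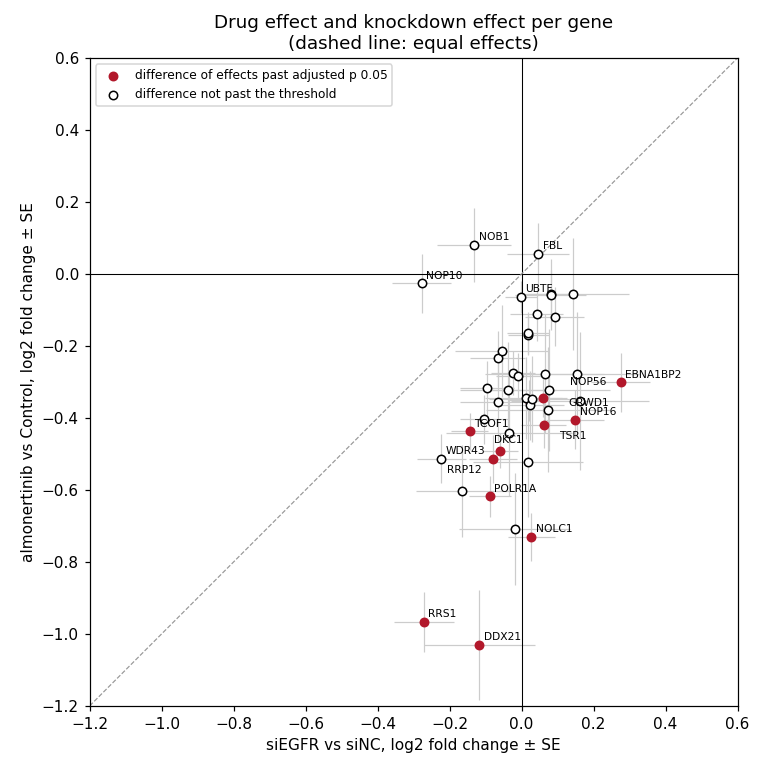
Each point is a gene; the horizontal axis is the log2 fold change of siEGFR against siNC and the vertical axis that of almonertinib against Control, with ± SE, and the dashed line marks equal effects. Filled points passed an adjusted p of 0.05 for the difference of effects, and they lie below the dashed line, between -0.27 and 0.28 on the knockdown axis.

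The other genes of the pathway, 124 genes grouped by role of which 123 were tested, were counted in the same comparisons. With almonertinib 3 were called higher and 34 lower (median -0.19), with EGF 69 higher and 2 lower (median 0.32), with siEGFR 0 in either direction (3 at an unadjusted p under 0.05) and between siNC and Control 98 higher and 4 lower (median 0.61). In the difference of drug and knockdown effects 1 was called higher and 15 lower. With almonertinib, where 18% of all tested loci were called lower and 12.1% higher, 19 lower and 2 higher were among 55 other large subunit genes, 12 and 0 among 40 other small subunit genes, 1 and 0 among 14 RNA exosome genes, and 2 and 1 among 14 other RNA polymerase I genes. With EGF, where 22% were called higher and 27.3% lower, the same lists had 33 higher and 1 lower, 23 and 0, 8 and 0, and 5 and 1.

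Read sharing with neighbouring genes could limit many of the 45 genes, and not all overlaps are named here. NOP2, a methyltransferase of large subunit RNA (ENSG00000111641), failed the filter with 0.085 to 0.299 FPKM and 8 to 49 reads, so its level is uncertain: in GENCODE v29, 54.4% of its exonic bases are overlapped by AC006064.6 on the same strand, which was listed at 0. Without the filter it was called only between siNC and Control (0.15, adjusted p = 0.0284). PPAN, another large subunit factor, is overlapped over 56.0% of its exonic bases by the readthrough gene PPAN-P2RY11 and is uncertain in the same way. AL049844.3 overlaps 27.7% of LTV1 and AC009879.2 11.4% of RRS1, also on the same strand, and these were listed at no more than 0.0281 FPKM and at 0. On the opposite strand, RMND5B overlaps 27.4% of NHP2, LGALS8 23.2% of HEATR1, SRR 20.7% of TSR1, AC092115.3 20.2% of NOB1 and COG8 20.2% of NIP7. HIGD2A, at 39.3 to 67.5 FPKM, overlaps 7.93% of NOP16, so the changes given for NOP16 carry this limit. XPO5, at 4.01 to 10.7 FPKM, overlaps 6.27% of POLR1C, and TCN2, at 6.44 to 21.8 FPKM, 5.40% of PES1. The sources used here do not say whether reads were counted by strand, so reads of these pairs cannot be told apart. NPM1, RRN3 and UTP14A have near-identical copies elsewhere in the genome, which could take or lend reads.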

How the data were processed

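The 15 messenger RNA libraries of NCI-H1975 were made from TRIzol extracts with oligo(dT) beads and an ABclonal kit and sequenced in pairs, per the labels' protocols. The authors deposited 1 table of FPKM values for 61248 loci, of which 643 are loci without an Ensembl ID. HISAT2, featureCounts, DESeq2 and hg19 are named, with no version or role, per the submitters' processing notes. Symbols came from a list by Ensembl ID (60463 loci matched), and overlaps between genes from GENCODE v29, whose build differs, so no gene positions on hg19 are given.

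Loci with at least 1 FPKM in at least 3 libraries were kept (14999), and log2(FPKM + 1) was fitted with limma 3.58.1 in R 4.3.3 (intensity trend, robust moderation, 1 coefficient per group, 10 residual degrees of freedom). Tests were two-sided, with Benjamini-Hochberg adjustment over all tested loci and a threshold of 0.05. An FPKM is scaled to the library total, so it is a relative level. The FPKM steps gave whole reads within 0.01 reads for 99.99815% of the positive values. Limma-voom on these recovered reads was an alternative, and it called 2355 loci higher and 2239 lower with almonertinib. The fit and the read recovery were tested on simulated data.

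The 45 genes, all lists and the naming rule were chosen with earlier results of these data known. Values in every library are given for the genes of each role class with the largest and the smallest change with almonertinib and with EGF, and for the 4 largest changes between the siRNA groups and between siNC and Control. Called genes that moved against most others are named too. The remaining examples were picked with their values in view. Alternatives changed the pseudocount, the filter, the scaling, the libraries in the fit and the variance model, added the replicate number as a block, or left out libraries. Python 3.11.15 with pandas 2.3.3, numpy 2.4.6 and matplotlib 3.10.9 made the tables and figures.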

Additional observations from a re-analysis of the deposited data

How the results depend on the processing

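The counts of called genes held within 1.5 times under every alternative for EGF (37 to 43 of 44 leaving out 1 library at a time) and for siNC against Control (42 to 43). With almonertinib, 27 genes were called, 19 to 34 leaving out 1 library and 8 in the fit on its own 6 libraries. For siEGFR against siNC, 0 were called, 0 to 2 leaving out 1 library (1 each without Control 1, Control 2 or EGF 1, and 2 without almonertinib 3), 1 each with TPM scaling, median-ratio scaling and limma-voom, 7 in the fit on its own libraries and 4 without Control 1 and almonertinib 3 together. For the drug effect minus the knockdown effect, 12 were called, 11 to 21 leaving out 1 library (21 without almonertinib 3), 20 with TPM scaling and 22 without Control 1 and almonertinib 3 together. Calls over all tested loci moved with the setting too. With almonertinib 18% were called lower in the main fit, 3.05% in the fit on its own 6 libraries and 15.7% without Control 1 and almonertinib 3. For siEGFR against siNC, 2.27% were called higher and 3.19% lower in the main fit, and 10.8% and 9.75% on its own libraries. Where no such share is given, a count does not set the 44 genes apart from other loci. The cause of these differences was not tested.

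With the replicate number as a block, 28 genes were called with almonertinib, 42 with EGF, 3 between siEGFR and siNC, 43 between siNC and Control and 18 for the difference of effects. Shares over all tested loci with the block are not given here, so these counts cannot be set against them. The numbers come from the sample names. Same-numbered libraries had correlations of their deviations from -0.17 to 0.54 between almonertinib and Control and from -0.12 to 0.60 between EGF and Control. They were 0.01 to 0.53 between almonertinib and EGF, and -0.01 to 0.03 between siNC and siEGFR. Libraries of different numbers correlated too, as Control 1 with almonertinib 3 (0.57), so the numbers were not treated as pairs. The main fit does not model spread shared between libraries of different groups.

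Of the log2 changes with almonertinib that were not called, 7 changed sign. PPAN ran from -0.15 to 0.02 over 24 alternatives. With median-ratio scaling UBTF was 0.020, NOP10 0.062, PES1 0.030 and NPM1 0.031, and with limma-voom UBTF was 0.021, NOP10 0.063, PES1 0.030 and NPM1 0.031. FBL was -0.029 with TPM scaling and -0.0029 without Control 1 and almonertinib 3 together, and NOB1 was -0.0056 with TPM scaling. Leaving out 1 library gave -0.11 to 0.017 for NOP10, -0.034 to 0.14 for FBL, -0.0020 to 0.17 for NOB1, -0.13 to 0.0064 for PES1 and -0.26 to 0.070 for NPM1. Over 25 alternatives for each of 38 named results, 893 values kept their direction and side of the threshold. Genes of few reads, such as LTV1 with 53 reads in its lowest library, are limited by counting error.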

Other observations

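Small nucleolar RNA genes lie inside some of these genes. In GENCODE v29, 9 of the 45 genes (20%) hold an annotated snoRNA gene within their bounds, against 202 of 11533 tested protein-coding genes (1.75%). They are POLR1C, DKC1, NOP56, NOP58, WDR43, TSR1, PPAN, NCL and GNL3. NOP56 holds SNORD110, SNORA51, SNORD86, SNORD56 and SNORD57, and NOP58, the other scaffold of the C/D particle, holds SNORD70, SNORD11B and SNORD11. The libraries were enriched for polyadenylated RNA, so levels of the snoRNAs themselves are not given.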
